A study of Homo sapiens with 4 samples.

Results

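Promoter chromatin was examined at 9 homeobox genes of the primitive streak, the posterior body and the gut, namely GSC, MIXL1, EVX1, EVX2, MSX1, MSX2, CDX1, CDX2 and PDX1. They were taken by gene symbol from 20242 deposited promoters, 1 per Ensembl gene, and all 9 were present. The cells were JMJD3c-hESCs, made from SEES-3, an established line of human pluripotent cells, by stable insertion of transgenes. Both groups carry the reverse Tet-transactivator and an HA-tagged catalytic domain of the H3K27 demethylase JMJD3 (JMJD3c) under a Tet-responsive element. One group received no doxycycline (−Dox), and the other received doxycycline at 1 μg/ml (+Dox), with collection on day 3. Chromatin immunoprecipitation followed by sequencing (ChIP-seq) was performed for trimethylated lysine 27 of histone H3 (H3K27me3) and trimethylated lysine 4 (H3K4me3), with 1 library for each mark and condition. No library was repeated, so no test was made, and intervals cover counting error only.

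Homeobox genes encode transcription factors that bind DNA through a homeodomain and set position and cell identity in the embryo. In pluripotent cells many of them are held silent by Polycomb proteins, which deposit H3K27me3, and often carry H3K4me3 as well, a combination called bivalent. GSC and MIXL1 are activated in the primitive streak by Nodal and Wnt signals. EVX1 and EVX2 lie beside the HOXA and HOXD clusters and act in posterior mesoderm and spinal interneurons, MSX1 and MSX2 respond to bone morphogenetic proteins in limb and face, and CDX1, CDX2 and PDX1 pattern the hindgut, intestine and pancreas.

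The genes were split by H3K27me3 into 7 with very strong signal and 2, MIXL1 and CDX1, below the class threshold of 20, and sequences from both sides are shown so that their CpG content can be compared. Each is the 300 bases directly before the deposited transcription start, in build GRCh37 (the assembly of hg19), read 5′ to 3′ along the transcribed strand, with CpG dinucleotides in capitals. EVX2 (chr2:176948691-176948990, minus strand) had the strongest H3K27me3 before induction. GSC (chr14:95236451-95236750, minus strand) had the strongest H3K4me3. MIXL1 (chr1:226411065-226411364, plus strand) and CDX1 (chr5:149546041-149546340, plus strand) were the 2 below the threshold. CDX2 (chr13:28543453-28543752, minus strand) is the strongly marked relative of CDX1.
EVX2: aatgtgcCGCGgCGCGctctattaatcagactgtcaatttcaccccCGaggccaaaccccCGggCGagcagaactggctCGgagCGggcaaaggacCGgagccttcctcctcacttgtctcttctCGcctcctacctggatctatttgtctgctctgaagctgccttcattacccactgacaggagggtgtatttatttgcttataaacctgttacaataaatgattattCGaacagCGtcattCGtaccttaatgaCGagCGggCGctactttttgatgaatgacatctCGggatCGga
GSC: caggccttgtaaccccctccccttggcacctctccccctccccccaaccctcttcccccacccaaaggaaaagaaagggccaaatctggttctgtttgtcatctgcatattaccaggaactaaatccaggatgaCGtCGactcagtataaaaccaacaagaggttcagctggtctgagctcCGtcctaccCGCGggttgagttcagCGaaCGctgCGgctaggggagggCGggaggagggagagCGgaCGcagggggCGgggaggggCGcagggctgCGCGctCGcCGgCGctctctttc
MIXL1: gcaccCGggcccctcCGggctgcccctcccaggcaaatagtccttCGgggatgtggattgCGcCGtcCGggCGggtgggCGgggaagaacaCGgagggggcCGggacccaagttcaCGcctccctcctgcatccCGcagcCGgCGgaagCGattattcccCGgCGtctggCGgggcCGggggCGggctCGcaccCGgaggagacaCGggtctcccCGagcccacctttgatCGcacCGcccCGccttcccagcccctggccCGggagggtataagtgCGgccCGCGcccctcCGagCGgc
CDX1: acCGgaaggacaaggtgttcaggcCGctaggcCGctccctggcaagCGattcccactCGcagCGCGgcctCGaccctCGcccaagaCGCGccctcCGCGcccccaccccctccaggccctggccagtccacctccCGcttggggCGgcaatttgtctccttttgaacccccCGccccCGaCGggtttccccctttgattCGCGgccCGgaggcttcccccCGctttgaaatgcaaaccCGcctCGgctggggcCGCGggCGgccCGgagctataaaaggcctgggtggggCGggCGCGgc
CDX2: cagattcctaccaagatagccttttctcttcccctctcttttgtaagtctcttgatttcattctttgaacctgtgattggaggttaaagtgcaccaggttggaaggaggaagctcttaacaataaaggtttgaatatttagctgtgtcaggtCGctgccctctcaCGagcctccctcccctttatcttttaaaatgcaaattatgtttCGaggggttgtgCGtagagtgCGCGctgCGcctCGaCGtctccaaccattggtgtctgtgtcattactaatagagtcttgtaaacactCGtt

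The 2 promoters below the H3K27me3 threshold were the most CpG-rich of the 9 directly before the start. MIXL1 held 33 CpG dinucleotides in these 300 bases and CDX1 held 31, whereas CDX2 held 10, EVX1 15, GSC 18, EVX2 19, PDX1 20, MSX2 22 and MSX1 26. The median over 18209 promoters with a matched position was 19. Over the whole 6-kb window in which the marks were measured, centred on the start, the order was different. CDX1 had 187 CpG and MIXL1 204, the lowest of the 9, followed by MSX2 with 216 and EVX1 with 236. CDX2 had 320, EVX2 and PDX1 329 each, MSX1 341 and GSC 358. The median was 156 over all matched promoters and 274 over the 343 with an H3K27me3 value above 100 in −Dox. Split by the threshold of 20 in −Dox, it was 219 for promoters above it for both marks and 156.5 for H3K27me3 alone. It was 180 for promoters above 20 for H3K4me3 alone and 78 for those above it for neither mark. The 2 genes below the threshold thus had the 2 lowest window counts, and MSX2, which carried strong H3K27me3, came next.

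**Figure D1:**
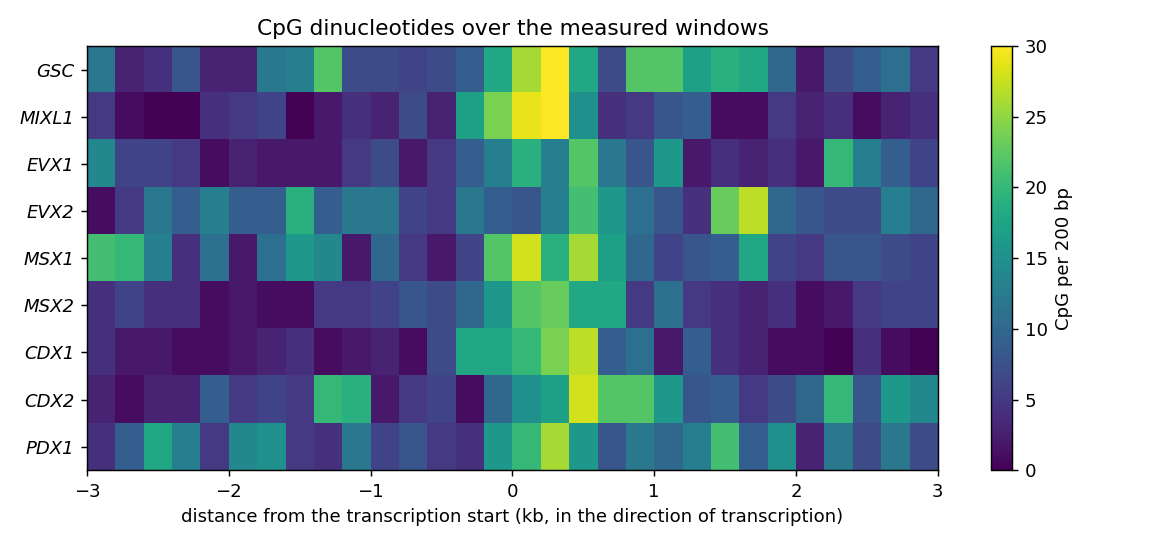
Number of CpG dinucleotides per 200 bp (colour) over the measured window of each gene, against the distance from the transcription start in kb, in the direction of transcription. MIXL1, CDX1 and the strongly marked MSX2 have CpG concentrated around the start, whereas GSC, MSX1, CDX2, PDX1 and EVX2 also have CpG-dense stretches farther away.

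Short motifs were searched on both strands of the same 300 bases. CTTTGAT, a sequence bound by the TCF/LEF factors of Wnt signalling, was found in MIXL1 (76 bases before the start) and CDX1 (109 bases before it) and in none of the other 7, against 2.48% of all promoters. TATAAA was present in GSC, EVX2, PDX1 and CDX1 (11.3% of all promoters), and in CDX1 it lay 30 bases before the start. CCAAT was found in EVX1, MSX1, MSX2, CDX2 and PDX1 (36.6%), and GGGCGG in GSC, MIXL1, MSX1 and CDX1 (55.5%). TTTATT, which resembles the site of caudal proteins, was found in EVX2, MSX2 and CDX2 (15.9%), and the homeodomain core TAATTA in MSX2 alone (3.97%). No 2 matches of different motifs overlapped in these promoters. A match is a description of the letters and not of a bound site.

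Values are sequencing coverage summed over the 6-kb window and multiplied by 1 constant in each file, and a value of 20 corresponds to about 16 to 21 reads. The constant, read from the smallest step between values, was 0.372844261 in both +Dox files, 0.380322030 in H3K27me3 −Dox and 0.284961630 in H3K4me3 −Dox. Libraries of different marks sharing a constant to 9 digits cannot both have been scaled to their own reads unless these were equal, and what the constants stand for is not known. Each +Dox/−Dox ratio of a mark may therefore carry a common factor that its interval does not contain, whereas ratios between promoters of the same library do not. The median promoter had an H3K27me3 value of 6.09 in −Dox and 5.97 in +Dox cells, and an H3K4me3 value of 41.3 and 38.8. Of 12 pluripotency genes fixed as markers of the labelled cell type, 11 had H3K4me3 above 20 in both conditions, and POU5F1 did not. Of 5 blood genes none did, while 3 of 5 fibroblast genes did. Over all promoters, 63.7% were above 20 in −Dox and 62.7% in +Dox cells. The median H3K4me3 value in −Dox cells was 123.7 for the pluripotency genes, 27.1 for the fibroblast genes and 7.12 for the blood genes. JMJD3c comes from a transgene that was not read here, so its induction could not be checked in these libraries.

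H3K27me3 was examined first. It was above 20, the class threshold used here, at 7 of the 9 genes in both conditions, against 11% of all promoters in −Dox and 6.73% in +Dox cells. The same 7 genes were also above 100 in both, against 1.88% and 1.29%. EVX2 (ENSG00000174279, chromosome 2, window 176945690 to 176951690) had a value of 274 in −Dox and 312 in +Dox cells. The −Dox value was the highest of all 20242 promoters. PDX1 (ENSG00000139515, chromosome 13, 28491137 to 28497137), a master regulator of the pancreas, had values of 249.9 and 336 and ranked 11 and 7. EVX1 (ENSG00000106038, chromosome 7, 27279421 to 27285421) had values of 188 and 271 and moved from rank 93 to rank 28. Both EVX genes and PDX1 were thus among the most strongly H3K27me3-marked promoters of these cells in each condition.

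CDX2 (ENSG00000165556, chromosome 13, 28540452 to 28546452), required for hindgut identity, had H3K27me3 values of 181 in −Dox and 234 in +Dox cells. MSX1 (ENSG00000163132, chromosome 4, 4858392 to 4864392) had 177 and 217. MSX2 (ENSG00000120149, chromosome 5, 174148585 to 174154585) had 121 and 129. For these the +Dox value was the higher one, as it was for EVX1, EVX2 and PDX1. GSC (ENSG00000133937, chromosome 14, 95233450 to 95239450), which marks the organizer region of the streak, had 135 and 107 and was the only strongly marked gene with the lower value in +Dox cells.

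MIXL1 (ENSG00000185155, chromosome 1, 226408365 to 226414365) had H3K27me3 values of 4.94 in −Dox and 3.36 in +Dox cells, about 4 and 3 reads, below the median promoter. CDX1 (ENSG00000113722, chromosome 5, 149543341 to 149549341), an intestinal relative of CDX2, had 11.4 and 7.46, about 9 and 6 reads. In −Dox cells CDX1 stood at percentile 80.3 of all promoters, above the median, and its counting interval (5.17 to 21.4) reached the threshold. A loss of H3K27me3 was not detectable at this depth for either gene.

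The order of the 9 genes was almost the same in both conditions, but many neighbours in it did not differ beyond counting error. In −Dox cells the order was EVX2, PDX1, EVX1, CDX2, MSX1, GSC, MSX2, CDX1 and MIXL1, and the ratio of a gene to the next one had an interval above 1 only for PDX1 over EVX1 (1.33, 95% interval 1.07 to 1.65), MSX1 over GSC (1.31, 1.02 to 1.71) and MSX2 over CDX1 (10.6, 5.45 to 24.3). In +Dox cells PDX1 came before EVX2, and MSX2 before GSC. There the interval was above 1 only for MSX1 over MSX2 (1.69, 1.31 to 2.17) and GSC over CDX1 (14.4, 6.32 to 40.1).

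**Figure D2:**
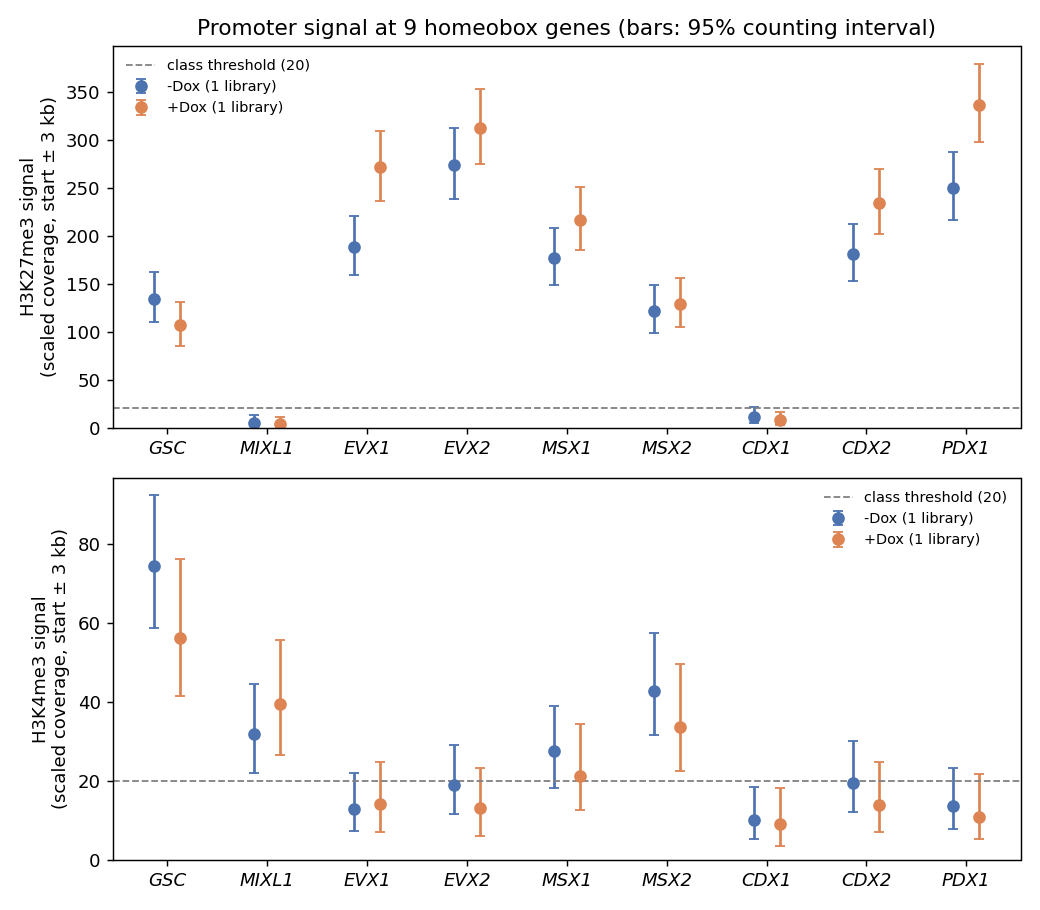
Deposited signal of H3K27me3 (top) and H3K4me3 (bottom) at the 9 promoters in −Dox (blue) and +Dox (orange) cells, 1 library each. Bars are 95% Poisson intervals of the approximate reads and the dashed line is the class threshold of 20. MIXL1 and CDX1 stay below 20 for H3K27me3, and GSC has the highest H3K4me3, at 74.4 and 56.3.

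H3K4me3 at these genes was modest. It was at or below the median promoter at 7 of 9 in each condition and above 20 at 4 of 9, against 63.7% of all promoters in −Dox and 62.7% in +Dox cells. GSC had the highest value, 74.4 in −Dox and 56.3 in +Dox cells. MSX2 had 42.7 and 33.6, MIXL1 31.9 and 39.5, and MSX1 27.6 and 21.3. The remaining genes were low, with CDX2 at 19.4 and 13.8, EVX2 at 18.8 and 13.0, PDX1 at 13.7 and 10.8, EVX1 at 12.8 and 14.2, and CDX1 at 9.97 and 8.95. These low values rest on about 7 to 21 reads. Within the −Dox order only GSC over MSX2 had an interval above 1 (1.74, 1.18 to 2.53), and within the +Dox order no neighbours did.

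Promoters with values above 20 for both marks were called bivalent. GSC, MSX1 and MSX2 were bivalent, which is 3 of 9 against 9.42% of all promoters. EVX1, EVX2, CDX2 and PDX1 were H3K27me3-only, which is 4 of 9 against 1.58%. MIXL1 was H3K4me3-only (54.2% of all promoters) and CDX1 unmarked (34.8%). All 9 genes were in the same class in +Dox cells, in which 5.07% of all promoters were bivalent, 1.66% H3K27me3-only, 57.6% H3K4me3-only and 35.7% unmarked. CDX2 and EVX2 lay just below the threshold for H3K4me3, and with a threshold of 10 the number of bivalent genes was 7. The H3K27me3-only class of EVX1, EVX2, CDX2 and PDX1 is thus set by the threshold. The bivalent class of MSX1 is uncertain too. Its H3K4me3 intervals, 18.2 to 39.0 in −Dox and 12.5 to 34.4 in +Dox cells, included 20. With a threshold of 30 the number of bivalent genes was 2.

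Whether H3K27me3 was lower after induction of JMJD3c was asked next, with the +Dox/−Dox ratio of the deposited values. The ratio was above 1 at 6 of 9 genes, against 43.4% of all promoters and 12.4% of the 1907 bivalent ones, and below 1 at 3, against 56.6% of all promoters. The 95% interval lay above 1 at 3 genes, against 1.68% of all and 2.1% of bivalent promoters, namely EVX1 with a ratio of 1.44 (1.16 to 1.78), PDX1 with 1.35 (1.12 to 1.63) and CDX2 with 1.29 (1.04 to 1.62). It included 1 at MSX1 with 1.23 (0.975 to 1.54), at EVX2 with 1.14 (0.943 to 1.37), at MSX2 with 1.06 (0.794 to 1.41) and at GSC with 0.795 (0.585 to 1.05). The interval lay below 1 at none, against 7.12% of all and 48.7% of bivalent promoters. At all 7 strongly marked genes the lower bound was above a ratio of 0.5, whereas 21.5% of all and 40.8% of bivalent promoters had a ratio below 0.5.

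Bivalent promoters are chosen by their −Dox values, which are also the denominator of the ratio, so the choice and the ratio are not independent. Their median H3K27me3 value in −Dox cells was 43.0. Promoters with strong H3K27me3 are the closer background for these 7 genes, although the mean level that defines them contains the values being compared. Of 298 promoters with a mean above 100, 53.4% had a ratio above 1, 18.8% an interval above 1, 14.4% an interval below 1 and 2.35% a ratio below 0.5. The 7 genes had 6 ratios above 1, 3 intervals above 1 and none below. Their median log2 ratio was 0.30, against 0.04 for the 298 and −0.81 for bivalent promoters.

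The ratios of CDX1, 0.654 (0.193 to 2.07), and MIXL1, 0.679 (0.108 to 4.37), could not be told from 1 or from a loss to less than 0.5. CDX1 was the only gene below 0.66, a level that 33.6% of all promoters were below. Because the scaling of the files is not known and no external reference was used here, a ratio above 1 does not show that the absolute amount of H3K27me3 was higher or kept. The scalings tried next do not depend on the deposited constants. They set the total, or the low promoters, equal between conditions, so they cannot show a change common to all promoters. With the libraries scaled to the same total, which raises H3K27me3 ratios by a factor of 1.18, and likewise with scaling over low promoters, the interval lay above 1 at 5 genes, EVX2 and MSX1 having been added, and all 9 ratios stayed on their side of 1. If each promoter rested on 1.5 times fewer reads, it did so only at EVX1 and PDX1. The 18 intervals, 9 for each mark, are not adjusted for their number.

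**Figure D3:**
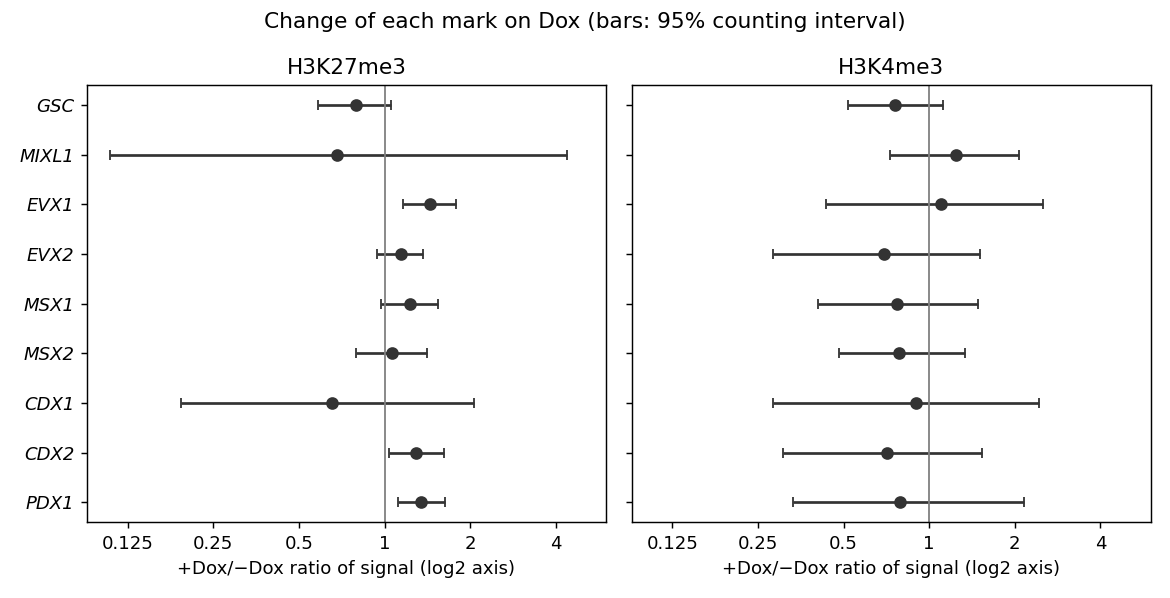
Ratio of +Dox to −Dox signal (log2 axis) for H3K27me3 (left) and H3K4me3 (right) at the 9 genes, with 95% counting intervals. For H3K27me3 the intervals of EVX1, CDX2 and PDX1 lie above 1 and those of MIXL1 and CDX1 are wide, whereas every H3K4me3 interval includes 1.

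The ratio of these genes went along with their H3K27me3 level, as it did over other promoters. The 82 promoters with a mean H3K27me3 value between 200 and 400 had a median log2 ratio of 0.29 (quartiles 0.12 and 0.42). In this range EVX1 had 0.53, PDX1 0.43, CDX2 0.37 and EVX2 0.19. Among 83 promoters between 150 and 200 the median was 0.05 (−0.18 and 0.20), and MSX1 had 0.30. Among 133 between 100 and 150 the median was −0.19 (−0.47 and 0.07), and MSX2 had 0.08 and GSC −0.33. The medians were −0.54 between 50 and 100 and −0.90 between 20 and 50, where none of the 9 genes lay. EVX1, PDX1, MSX1 and MSX2 were therefore above the upper quartile of promoters of like level, and CDX2, EVX2 and GSC between the quartiles. The same values enter the level and the ratio, so they are not independent.

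**Figure D4:**
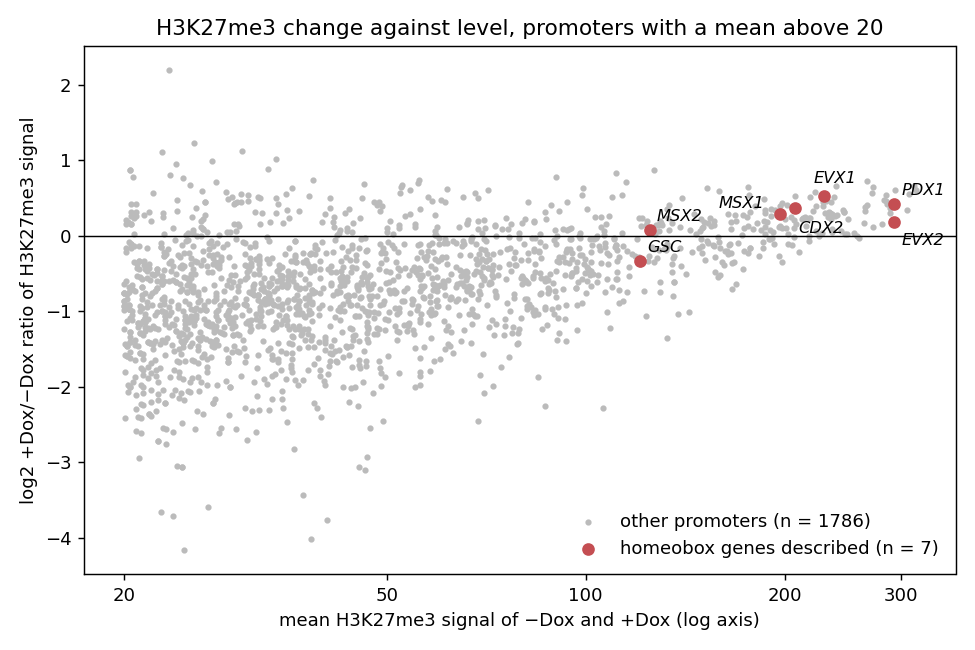
Log2 +Dox/−Dox ratio of H3K27me3 against the mean H3K27me3 signal of both conditions (log axis) for 1793 promoters with a mean above 20. The 7 strongly marked homeobox genes (red) lie at the right, all but GSC above 0. Most of the 1786 other promoters (grey) have a lower mean and lie below 0. Of the 298 promoters with a mean above 100, which include the 7, 53.4% lie above 0.

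The H3K4me3 ratio was below 1 at 7 of the 9 genes, against 52.6% of all promoters. It was 0.694 at EVX2 (0.282 to 1.51), 0.712 at CDX2 (0.307 to 1.53), 0.757 at GSC (0.520 to 1.12), 0.769 at MSX1, 0.785 at MSX2, 0.790 at PDX1 and 0.897 at CDX1. It was above 1, as at 47.4% of all promoters, at MIXL1 with 1.24 (0.731 to 2.06) and at EVX1 with 1.10 (0.435 to 2.51). No interval excluded 1, against 3.13% of all promoters with an interval below 1 and 1.86% with one above. The median log2 ratio was −0.35 for the 9 genes, −0.02 for all promoters, −0.18 for bivalent ones and −0.42 for the 298 promoters with a mean H3K27me3 value above 100, of which 81.2% had a ratio below 1, 20.1% an interval below 1 and 1.34% one above. At EVX2, MSX1, MSX2, CDX2 and PDX1 the H3K27me3 value was higher and the H3K4me3 value lower in +Dox cells. At none of these genes did both intervals exclude 1. The share of other promoters with both directions together was not computed. Of the 298 promoters, 53.4% had an H3K27me3 ratio above 1, beside the 81.2% with an H3K4me3 ratio below 1.

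Relatives within a family were compared in the same library, where no scaling between libraries enters. CDX2 had 15.9 times the H3K27me3 of CDX1 in −Dox (8.20 to 35.7) and 31.4 times in +Dox cells (14.2 to 86.9), and the interval of their H3K4me3 ratio, 1.94 in −Dox cells, included 1 (0.947 to 4.99). The 2 streak genes differed in both marks. MIXL1 had 0.0367 of the H3K27me3 of GSC (0.010 to 0.0985) and 0.429 of its H3K4me3 (0.279 to 0.651) in −Dox cells, and in +Dox cells the H3K4me3 ratio was 0.702 (0.421 to 1.11). EVX2 exceeded EVX1 for H3K27me3 by 1.46 times in −Dox cells (1.18 to 1.80) and by 1.15 times in +Dox cells (0.956 to 1.39). MSX2 had 0.686 of the H3K27me3 of MSX1 in −Dox (0.526 to 0.897) and 0.593 in +Dox cells (0.462 to 0.762). The change on Dox did not differ detectably within any of these pairs. The H3K27me3 ratio of one divided by that of the other was 0.788 for EVX2 over EVX1 (0.598 to 1.04), 0.864 for MSX2 over MSX1 (0.606 to 1.23), 1.98 for CDX2 over CDX1 (0.690 to 5.66) and 0.854 for MIXL1 over GSC (0.177 to 4.11).

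The surroundings of the genes differed. EVX2 lies 8759 bp from HOXD13, and its window does not overlap that of HOXD13. Its H3K27me3 value was above those of all 9 HOXD promoters within 150 kb, which ranged from 141 to 229 in −Dox and from 115 to 299.8 in +Dox cells. EVX2 over HOXD13 was 1.47 (1.18 to 1.80) in −Dox and 1.86 (1.51 to 2.32) in +Dox cells, and the interval lay above 1 against 8 of the 9 in each condition. Against HOXD9 it included 1, with 1.20 (0.974 to 1.46) in −Dox and 1.04 (0.869 to 1.25) in +Dox cells. On the other side, KIAA1715, 81695 bp away, had 6.09 and 8.20. EVX1 stood within the range of the 9 HOXA promoters with a matched position within 150 kb. That range was 154 to 250.3 in −Dox and 149 to 382 in +Dox cells. H3K27me3 was higher in +Dox cells at 8 of these HOXA promoters and at 2 of the 9 HOXD promoters, a difference that was not tested. Some of the 6-kb windows within each cluster overlap, as those of HOXA3 and HOXA5 and of HOXD12 and HOXD11 do. The HOX promoters counted here, and the comparisons of EVX2 with them, are therefore not independent.

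PDX1 and CDX2 lie 49315 bp apart and, with GSX1 127517 bp from PDX1, form the ParaHox cluster, the sister of the HOX clusters. GSX1, a forebrain gene, had an H3K27me3 value of 239.6 in −Dox and 329.6 in +Dox cells. Its ratio was 1.38 (1.14 to 1.66), next to 1.35 for PDX1 and 1.29 for CDX2. ATP5EP2, a pseudogene and the only matched promoter between PDX1 and CDX2, had 19.8 in −Dox, just under the threshold, and 7.08 in +Dox cells. URAD, 19378 bp beyond CDX2, had 7.61 and 2.24. CDX1 lay between PDGFRB (3.80 and 1.12) and SLC6A7 (19.8 and 16.0), 10933 and 23307 bp away. The nearest promoter to MIXL1 was ACBD3, 36923 bp away, with 8.37 and 6.34. GSC, MSX1, MSX2 and EVX1 had no deposited promoter with a matched position within 50 kb. For EVX1 this may depend on the matching. HOXA13, a gene of the HOXA cluster beside it, was deposited but is absent from the matched promoters around EVX1. HOXA13 had a mean H3K27me3 value of 222 and a log2 ratio of 0.58, beside 229.7 and 0.53 for EVX1.

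**Figure D5:**
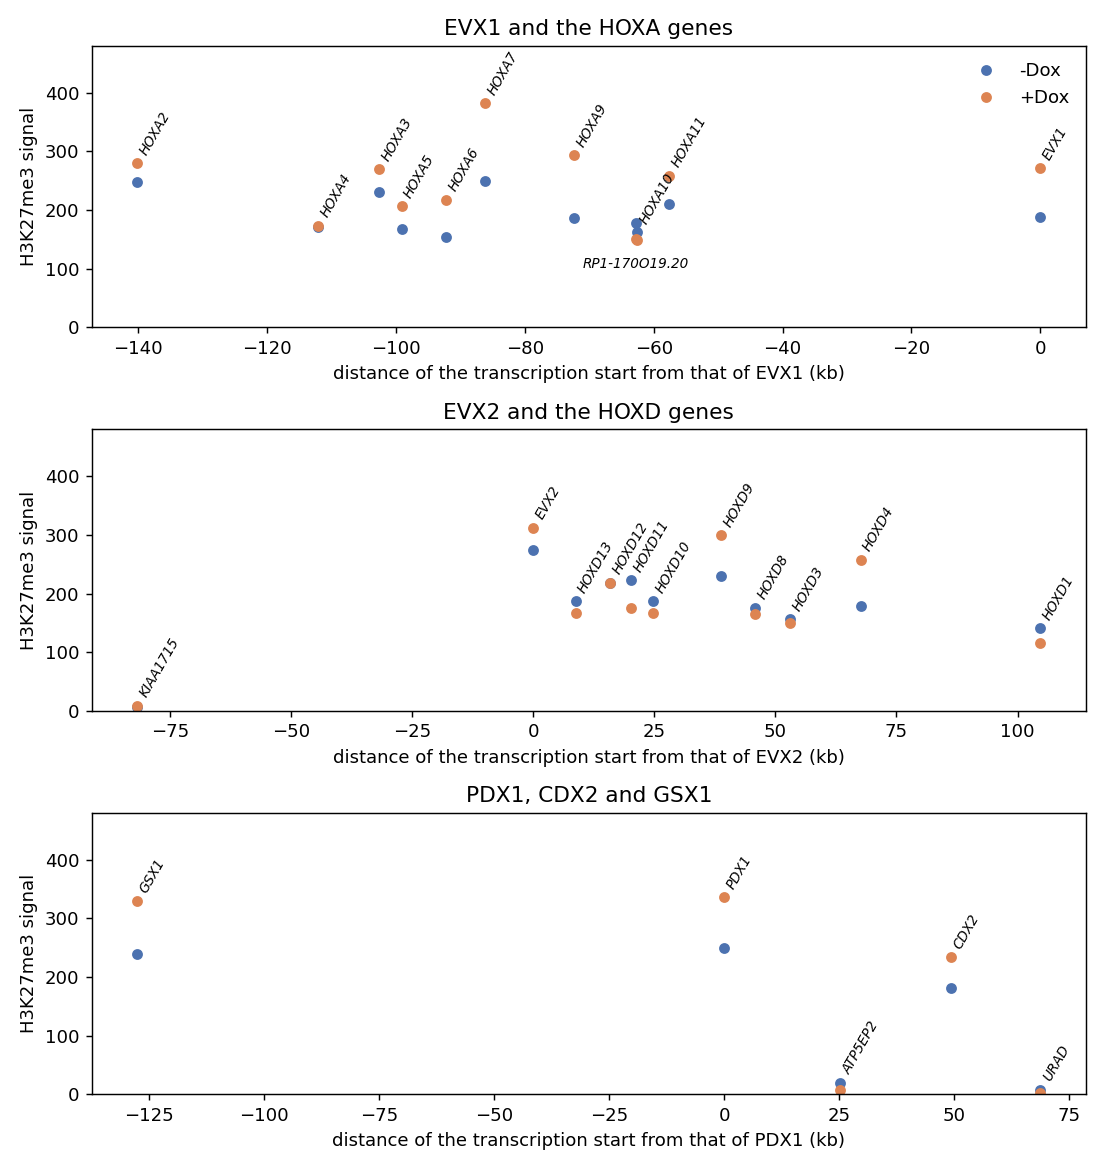
H3K27me3 signal in −Dox (blue) and +Dox (orange) cells at deposited promoters with a matched position within 150 kb of EVX1, EVX2 and PDX1. It is drawn against the distance of their starts in kb along the plus strand. EVX2 is the highest of its region in both conditions, and ATP5EP2 (between PDX1 and CDX2) and URAD (beyond CDX2) are below 20 in both.

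The promoters most like each gene were found by the Euclidean distance of log2(value + 1) over the 4 libraries. They were HOXC5 for EVX1 (distance 0.30), HOXA5 for CDX2 (0.23), PAX1 for PDX1 (0.42), DMRTA2 for EVX2 (0.46), TBX4 for MSX1 (0.15), SLC18A3 for MSX2 (0.21), PDGFRA for GSC (0.20), POFUT2 for MIXL1 (0.16) and CNFN for CDX1 (0.25). DMRTA2, nearest to EVX2, had H3K27me3 values of 233 and 354 and H3K4me3 values of 23.4 and 14.9. PDGFRA, a receptor for platelet-derived growth factor, had 133 and 99.5 for H3K27me3 and 70.1 and 62.6 for H3K4me3, close to GSC for both marks.

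Other genes of the same pathways are given beside the 9, with the limit that their H3K27me3 levels differed. The median in −Dox cells was 177 for the 9 genes, 17.9 for streak and mesendoderm regulators and 78.7 for gut and pancreas regulators, and over all promoters lower levels went with lower ratios. For the 9 genes the H3K27me3 ratio had a median of 0.19 on the log2 scale, against −0.14 for all promoters. Among 27 further regulators of the primitive streak and mesendoderm it was −0.43, the interval lay below 1 at 6 and above 1 at none, and 10 were bivalent in −Dox cells. The lowest ratio among those of them with a mean above 20 was that of BMP4, a signal that induces mesoderm, with 54.4 in −Dox and 8.95 in +Dox cells, 0.165 (0.0596 to 0.351), and the highest that of WNT3A, with 77.6 and 96.2, 1.24 (0.878 to 1.76). Among 28 further regulators of gut and pancreas the median was −0.20, with 8 intervals below 1 and none above. Of those with a mean above 20, FOXA2, a pioneer factor of endoderm, had the lowest ratio. Its values were 114 and 26.8, a ratio of 0.236 (0.144 to 0.388). NKX6-1, a pancreatic homeobox gene, had the highest, with 200.05 and 236, a ratio of 1.18 (0.955 to 1.47).

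Homeobox genes outside the 9 were spread in both directions. Of 104 others, 18 had an H3K27me3 interval below 1 and 17 above 1, with a median log2 ratio of −0.01. Of these, 86 had a mean H3K27me3 value above 20. Among the 86, SIX6, an eye field gene, had the lowest ratio, 0.205 (0.131 to 0.304). Its H3K4me3 was 2.43 times as high in +Dox cells (1.77 to 3.34). TLX1 had the highest ratio of the 86, 2.35 (1.18 to 5.13), from values of 15.2 and 35.8, about 12 and 29 reads. The 39 HOX genes had a median of 0.18, with 2 intervals below 1 and 14 above. Among those with a mean above 20, ratios ran from HOXB13 with 0.515 (0.300 to 0.909) to HOXA9 with 1.58 (1.28 to 1.95). For H3K4me3 the medians were 0.04 for the streak list, −0.20 for the gut list, −0.30 for other homeobox genes and −0.58 for HOX genes, beside −0.35 for the 9. Differences between lists were not tested. The lists share genes and are not separate groups. For example, FOXA2, GATA4 and GATA6 are in both the streak and the gut list. NKX6-1 of the gut list and LHX1 of the streak list are also among the other homeobox genes.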

How the data were processed

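JMJD3c-hESCs were profiled by single-end ChIP-seq on a MiSeq, with 1 library each for H3K27me3 −Dox, H3K27me3 +Dox, H3K4me3 −Dox and H3K4me3 +Dox. The authors mapped reads to hg19 with Bowtie2, removed mitochondrial reads and computed coverage with ngs.plot. The submitters' processing notes also name CASAVA 1.4. The values the authors deposited are signal, namely coverage multiplied by 1 constant per file and summed over 3 kb on each side of 1 transcription start per Ensembl gene. The class threshold of 20 follows the study's methods. No input was used here, and a scaling to the density after transcription ends, named in the study's methods, is not stated for these values. Read as reads per 1e6, the steps between values would stand for 2682085.0 reads in both +Dox files, 2629350.7 in H3K27me3 −Dox and 3509244.4 in H3K4me3 −Dox, which are not all whole or distinct, so these are not taken as library sizes.

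All values in a file were whole multiples of 1 step, taken as 1 read at 1 data point. The spacing of peaks among low values (3.29 to 3.39 steps) was taken as the points covered by a read, which gave approximate reads, 172387 to 980510 per library in all windows. Ratios are +Dox over −Dox values without a pseudocount. For their 95% intervals the approximate reads of both libraries were treated as binomial, with exact Clopper-Pearson bounds on the share from +Dox cells (scipy 1.17.1), and those of a ratio of ratios from Poisson errors on the log scale. Reads are not independent molecules, so intervals cover counting error only and compare libraries, not conditions.

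Starts were matched by transcript identifier to GENCODE 44 on GRCh37 (18244 of 20242, 90.1%), and all 9 genes lay at the canonical start. Sequences were read from that genome. Homeodomains were not analysed here. The members and gene lists were chosen with earlier results of these data known. Besides the 9 genes, the text names the nearest promoters within 50 kb, the most alike promoter of each gene and the genes with the lowest and highest H3K27me3 ratio of each list among those with a mean above 20. The promoters within 150 kb of EVX1, EVX2 and PDX1, HOXA13 and the pairs of EVX2 with HOXD genes were added after values had been seen.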

Additional observations from a re-analysis of the deposited data

How the results depend on the processing

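Each summary value was recomputed with the libraries of a mark scaled to the same total, scaled over low promoters, with the median of unmarked promoters subtracted, with pseudocounts of 1 and 5, with canonical starts only, with 1.5 times fewer reads and with other class thresholds, as far as each applies. Both scalings remove whatever constant the files were multiplied by, but they would also remove a real change common to all promoters. For H3K27me3 the median log2 ratio stayed positive, from 0.18 to 0.42. The number of genes with an H3K27me3 interval above 1 was 3, and became 5 with scaling to the same total and 5 with scaling over low promoters. The single gene below a ratio of 0.66, CDX1, left 0 genes there under both scalings and both pseudocounts. Subtracting the median of unmarked promoters moved the median log2 H3K4me3 ratio from −0.35 to −0.53. With a class threshold of 10 there were 7 bivalent genes in place of 3, and with 30 there were 2. The cause of these moves was not tested. No H3K4me3 interval excluded 1 under any setting tried. The ratios of single genes stayed within their intervals in all 89 recomputations. With the unmarked median subtracted, MIXL1 had no H3K27me3 ratio, and the H3K27me3 summaries of that setting rest on 8 genes. Its values of 4.94 and 3.36 lay below that median, 5.32 in −Dox and 4.85 in +Dox cells. No paired analysis was possible because a mark and condition is a single library, and this also leaves no replicate to drop. H3K4me3 at EVX1, EVX2, PDX1, CDX1 and CDX2, and H3K27me3 at MIXL1 and CDX1, are limited by depth.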
